A study of Mus musculus with 8 samples.

Results

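The fibroblast growth factor (FGF) genes described here are the 5 ligand genes Fgf1, Fgf2, Fgf7, Fgf10 and Fgf18 and the 4 receptor genes Fgfr1, Fgfr2, Fgfr3 and Fgfr4. They were chosen by name, with earlier results of these data known. Array rows annotated with exactly 1 of these symbols were used, and each gene was represented by its brightest row over the 8 arrays. All 9 were found among the 22180 genes tested. Expression was measured in mesenchymal cells sorted from mouse lungs, with 4 arrays from lungs given bleomycin and 4 from control lungs given phosphate-buffered saline (PBS). All mice were C57BL/6J, 11 weeks old and kept free of specific pathogens, and were dosed intratracheally with 1 of these agents. Bleomycin breaks DNA and is used to provoke lung injury and fibrosis in mice. On day 10 cells lacking CD45, CD31 and EpCAM were sorted from whole lungs, a gate meant to leave out leukocytes, endothelium and epithelium. The labels do not say whether replicates were separate animals or pools, so the p-values cover no more than the scatter of these arrays, part or all of which may be technical.

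Most FGFs are secreted proteins that bind receptor tyrosine kinases together with heparan sulfate, a sugar chain on cell surface and matrix proteoglycans. Receptor signals run through the adaptor FRS2 and the RAS-ERK cascade and switch on their own inhibitors, among them the Sprouty proteins. In the lung, mesenchymal cells make FGF7 and FGF10, which act on the epithelial form of FGFR2 and drive branching and epithelial growth. FGF18 is made by mesenchyme during alveolar development, and mice that lack both FGFR3 and FGFR4 form alveoli poorly. FGF2 and FGF1 lack a classical signal peptide and act on several receptors, FGF2 as a mitogen of fibroblasts.

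The ligands split by direction and the receptors that passed the test all fell. Among the ligands, Fgf18 and Fgf2 rose, Fgf7 and Fgf10 fell, and Fgf1 did not pass. Among the receptors, Fgfr3 and Fgfr4 fell and Fgfr1 and Fgfr2 did not pass. In all, 6 of the 9 genes passed (limma, Benjamini-Hochberg adjusted over 22180 genes, threshold 0.05), 2 of them higher and 4 lower in bleomycin arrays, beside 17.4% of all genes, 9.12% higher and 8.24% lower. The groups did not overlap for the same 6 genes, beside 23.5% of all genes. Fgf18, Fgfr3 and Fgfr4 passed with a difference of over 2-fold, 3 of the 9 genes, beside 3.26% of all genes. The 9 genes were bright, at 7.08 to 9.97 on all arrays, while the shares of all genes include dim ones. With the dimmest 50% of genes left out, 2040 genes were higher and 2087 lower, a larger share than over all genes. The median difference of all genes was 0.03 on the log2 scale.

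**Figure D1:**
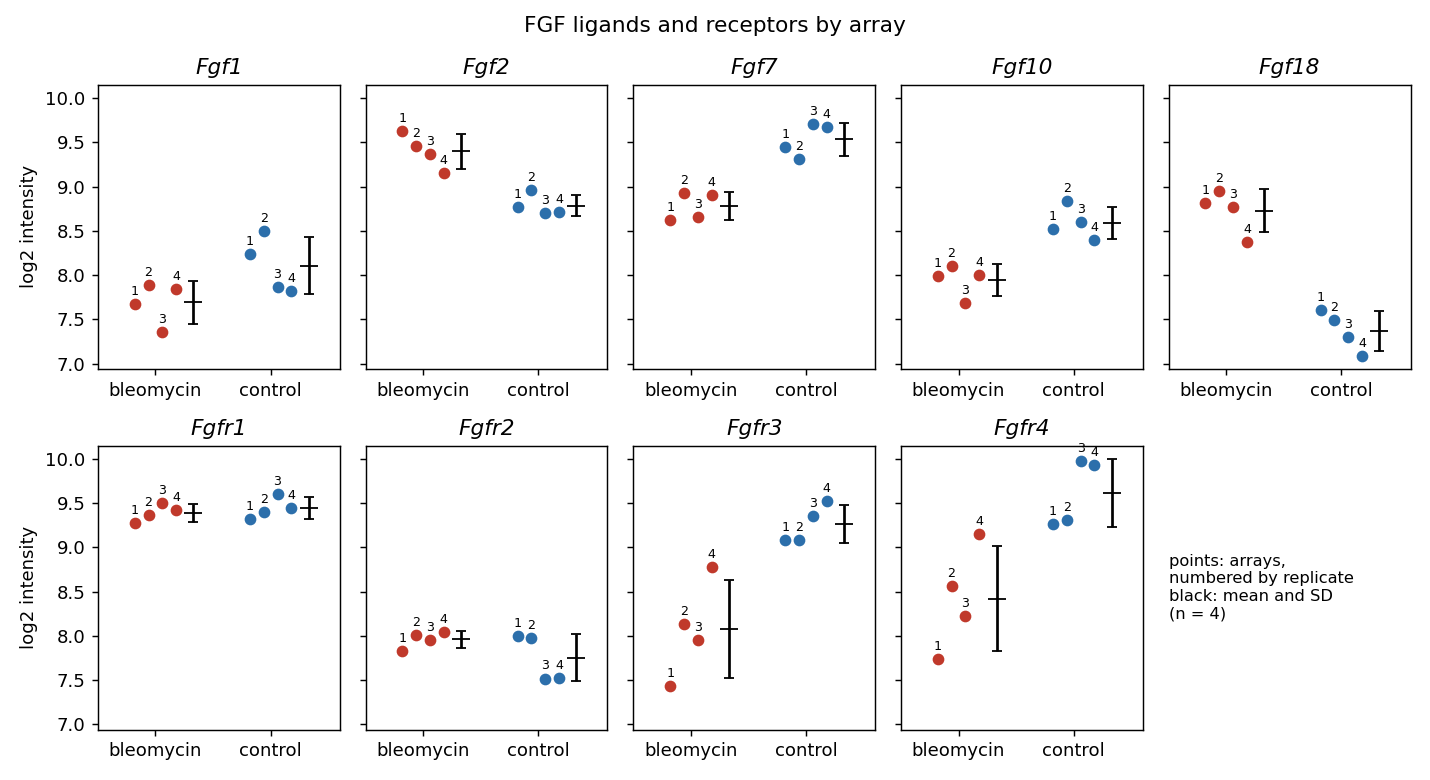
Level of each FGF gene (log2 intensity) on the 4 bleomycin and 4 control arrays, numbered by replicate, with the mean and SD (n = 4) in black. The groups do not overlap for Fgf2, Fgf7, Fgf10, Fgf18, Fgfr3 and Fgfr4, and bleomycin replicate 4 lies nearest the controls for Fgf2, Fgf18, Fgfr3 and Fgfr4.

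Fgf18 had the largest rise of the 5 ligands chosen. Its level was 8.81, 8.95, 8.77 and 8.38 (log2 intensity) on bleomycin replicates 1 to 4, against 7.60, 7.49, 7.30 and 7.08 on control replicates 1 to 4. Every bleomycin array lay above every control array, with a gap of 0.78 between the nearest arrays. The means were 8.72 ± 0.24 in bleomycin and 7.37 ± 0.23 in control arrays (SD, n = 4 each), a log2 difference of 1.36 ± 0.15 (SE) or 2.56-fold (95% interval 2.05 to 3.21, limma adjusted p = 0.000231). Of all genes tested, 225 had a larger positive difference.

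The sequence around the annotated start of Fgf18 is shown because this gene changed most among the 5 ligands chosen. It runs from 250 bases before the start to 50 after it, in RefSeq's GRCm38.p6, and capitals mark matches to the GC box GGGCGG on either strand.
Fgf18, chr11:33147351-33147650, minus strand: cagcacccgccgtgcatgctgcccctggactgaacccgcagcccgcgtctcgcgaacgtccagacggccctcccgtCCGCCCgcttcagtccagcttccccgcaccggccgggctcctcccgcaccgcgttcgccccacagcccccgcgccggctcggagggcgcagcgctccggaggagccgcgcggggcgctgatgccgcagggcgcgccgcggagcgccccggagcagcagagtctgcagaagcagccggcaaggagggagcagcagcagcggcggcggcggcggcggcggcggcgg
The window held 47 CpG dinucleotides and 78.7% G and C, beside medians of 7 and 52.7% over the 32851 windows of the same length. It held 1 GC box, a motif found in 35.7% of all windows. The TATA box TATAAA, the AP-1 motif TGANTCA and the TEAD motif GGAATG, searched on both strands and none contained in another, were not found in it. These occur in 13.6%, 7.81% and 14.7% of all windows. A match describes letters and is not a measured binding site.

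Fgf2 rose less. Its level was 9.63, 9.45, 9.37 and 9.15 on bleomycin replicates 1 to 4, against 8.77, 8.96, 8.70 and 8.71 on control replicates 1 to 4. The groups were separated by 0.19, between bleomycin replicate 4 and control replicate 2. The log2 difference was 0.62 ± 0.11 (SE), 1.53-fold with a 95% interval of 1.28 to 1.83 (limma adjusted p = 0.00464).

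Fgf7 and Fgf10, the mesenchymal ligands of epithelial FGFR2, were both lower. Fgf7, also known as keratinocyte growth factor, read 8.62, 8.92, 8.66 and 8.91 on bleomycin replicates 1 to 4, against 9.44, 9.31, 9.70 and 9.67 on control replicates 1 to 4. All bleomycin arrays lay below all control arrays. The log2 difference was -0.75 ± 0.12, or 1.69-fold lower (95% interval 1.40 to 2.03, limma adjusted p = 0.00193). Fgf10 read 7.99, 8.10, 7.68 and 7.996 on bleomycin replicates 1 to 4, against 8.52, 8.84, 8.60 and 8.40 on control replicates 1 to 4. Here too the groups did not overlap, and the log2 difference was -0.65 ± 0.12, or 1.57-fold lower (95% interval 1.30 to 1.89, limma adjusted p = 0.00502).

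Fgf10 was the only one of the 9 genes with a further row on the array. That dimmer row read 6.94, 7.74, 6.85 and 7.48 on bleomycin replicates 1 to 4, against 7.78, 8.21, 7.86 and 8.002 on control replicates 1 to 4. It also fell, by -0.71 ± 0.19 (log2 difference ± SE, limma adjusted p = 0.0298), and its bleomycin arrays spread more widely, with an SD of 0.43 against 0.18 for the brighter row.

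Fgf1, which can bind all 4 receptors, did not pass. It read 7.68, 7.89, 7.36 and 7.85 on bleomycin replicates 1 to 4, against 8.24, 8.50, 7.86 and 7.82 on control replicates 1 to 4. Control replicates 3 and 4 lay below bleomycin replicate 2, so the groups overlapped. The log2 difference was -0.41 with a 95% interval of -0.79 to -0.04 and an adjusted p of 0.127 by limma.

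Fgfr3 and Fgfr4 had the largest falls of the 9 genes. Fgfr3 read 7.43, 8.14, 7.95 and 8.78 on bleomycin replicates 1 to 4, against 9.09, 9.09, 9.36 and 9.52 on control replicates 1 to 4. Fgfr4 read 7.73, 8.56, 8.23 and 9.15 on bleomycin replicates 1 to 4, against 9.26, 9.31, 9.97 and 9.93 on control replicates 1 to 4. Both genes had the same order of bleomycin arrays, lowest on replicate 1, then 3, 2 and 4, and the groups were separated by 0.31 for Fgfr3 and 0.11 for Fgfr4. The bleomycin arrays spread widely, with an SD of 0.56 for Fgfr3 and 0.59 for Fgfr4, against 0.22 and 0.39 in control arrays. Fgfr3 differed by -1.19 ± 0.24 (log2 difference ± SE), 2.28-fold lower with a 95% interval of 1.58 to 3.29 (limma adjusted p = 0.00689). Fgfr4 differed by -1.20 ± 0.28, 2.30-fold lower with a 95% interval of 1.49 to 3.53 (limma adjusted p = 0.0144). Only 182 genes had a lower difference than Fgfr3 and 178 a lower one than Fgfr4.

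The windows around the annotated starts of these receptors are shown because they fell together. Fgfr3 has a pair of annotated starts, and capitals mark GGGCGG or GGAATG on either strand.
Fgfr3, upstream start, chr5:33721474-33721773, plus strand: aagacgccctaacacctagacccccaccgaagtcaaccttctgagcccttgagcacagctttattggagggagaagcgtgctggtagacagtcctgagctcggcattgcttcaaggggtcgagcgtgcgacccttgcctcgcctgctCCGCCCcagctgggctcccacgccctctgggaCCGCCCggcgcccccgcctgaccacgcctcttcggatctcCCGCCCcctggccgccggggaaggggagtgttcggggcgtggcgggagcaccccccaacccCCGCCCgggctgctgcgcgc
Fgfr3, downstream start, chr5:33722056-33722355, plus strand: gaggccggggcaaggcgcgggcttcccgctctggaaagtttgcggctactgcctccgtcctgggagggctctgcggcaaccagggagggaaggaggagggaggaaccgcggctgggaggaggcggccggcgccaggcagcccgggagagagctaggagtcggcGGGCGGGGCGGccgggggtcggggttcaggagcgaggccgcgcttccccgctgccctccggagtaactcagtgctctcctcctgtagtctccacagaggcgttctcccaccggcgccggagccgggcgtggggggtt
Fgfr4, chr13:55152568-55152867, plus strand: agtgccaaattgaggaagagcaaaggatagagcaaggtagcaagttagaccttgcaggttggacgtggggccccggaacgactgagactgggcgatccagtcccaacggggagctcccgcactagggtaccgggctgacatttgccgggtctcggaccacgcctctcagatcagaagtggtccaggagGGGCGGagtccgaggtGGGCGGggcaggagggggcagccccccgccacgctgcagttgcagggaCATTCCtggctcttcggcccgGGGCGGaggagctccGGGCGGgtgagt
The upstream Fgfr3 window held 4 GC boxes, the downstream one 2 that share 1 base, and the Fgfr4 window 4. Fgfr4 also held 1 TEAD match, and neither TATAAA nor TGANTCA was found in these windows. They held 26, 30 and 20 CpG dinucleotides. RefSeq windows were at hand for 7 of the 9 genes.

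Fgfr1, a receptor widely expressed in mesenchyme, did not pass. It read 9.27, 9.36, 9.50 and 9.42 on bleomycin replicates 1 to 4, against 9.32, 9.40, 9.61 and 9.45 on control replicates 1 to 4. The groups overlapped, and the difference of -0.05 had a 95% interval of -0.26 to 0.16 (log2, limma adjusted p = 0.748). That interval leaves room for changes of at most 1.20-fold downward and 1.11-fold upward.

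Fgfr2 did not pass over all 8 arrays. It read 7.83, 8.01, 7.96 and 8.04 on bleomycin replicates 1 to 4, against 7.999, 7.97, 7.52 and 7.52 on control replicates 1 to 4. Control replicates 1 and 2 stood with the bleomycin arrays, and control replicates 3 and 4 below them all. The log2 difference was 0.21 with a 95% interval of -0.08 to 0.50 (limma adjusted p = 0.331). Without control replicates 1 and 2 it was 0.44 and passed (limma adjusted p = 0.0428). Those are the control arrays with the highest Fgfr2, so leaving them out had to widen the difference. Only control replicates 3 and 4 remained there. The single Fgfr2 row does not separate the epithelial from the mesenchymal splice form.

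**Figure D2:**
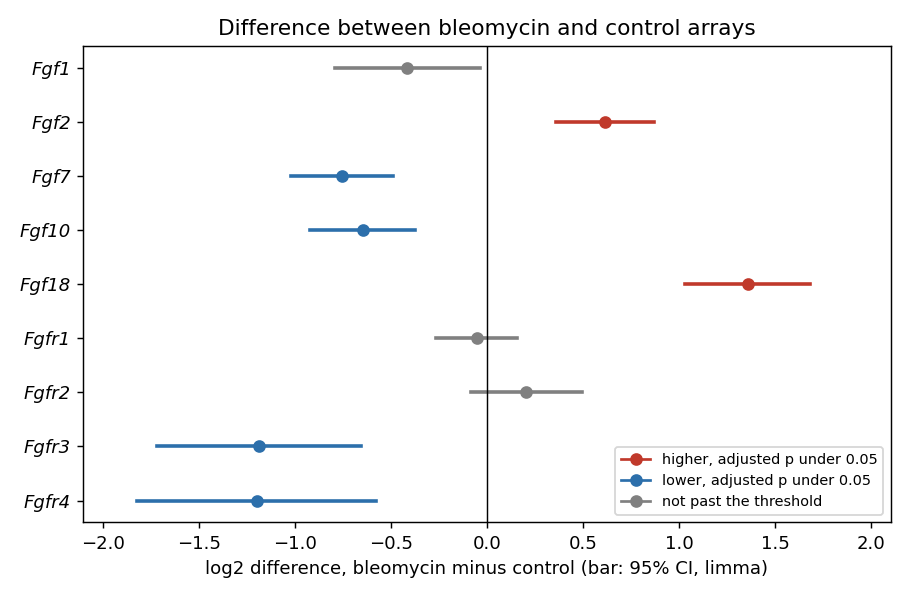
Log2 difference of each FGF gene, bleomycin minus control, with its 95% interval from limma (n = 4 arrays each). Fgf18 at 1.36 and Fgf2 at 0.62 lie to the right of 0, Fgf7, Fgf10, Fgfr3 and Fgfr4 to the left, and the grey genes Fgf1, Fgfr1 and Fgfr2 did not pass.

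Replicates 1 and 2 and replicates 3 and 4 were also compared apart, since the control arrays differed along that line. All 6 genes that passed had the same direction within each pair of replicates. Because their groups do not overlap, no subset of the arrays could give another sign. Fgf18 differed by 1.33 within replicates 1 and 2 and by 1.38 within replicates 3 and 4, passing in both (limma adjusted p of 0.00553 and 0.0295). Fgfr3 differed by -1.30 and -1.07 and Fgfr4 by -1.14 and -1.26. With 2 arrays per group, Fgfr3 passed in replicates 1 and 2 (limma adjusted p = 0.0309) and Fgfr4 in neither (adjusted p of 0.0632 and 0.0858). Fgf7 differed by -0.60 and -0.90 and Fgf10 by -0.64 and -0.66. Fgf2 differed by 0.68 and 0.55. Fgfr2 differed by -0.07 and 0.48, and whether these differ from each other was not tested.

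**Figure D3:**
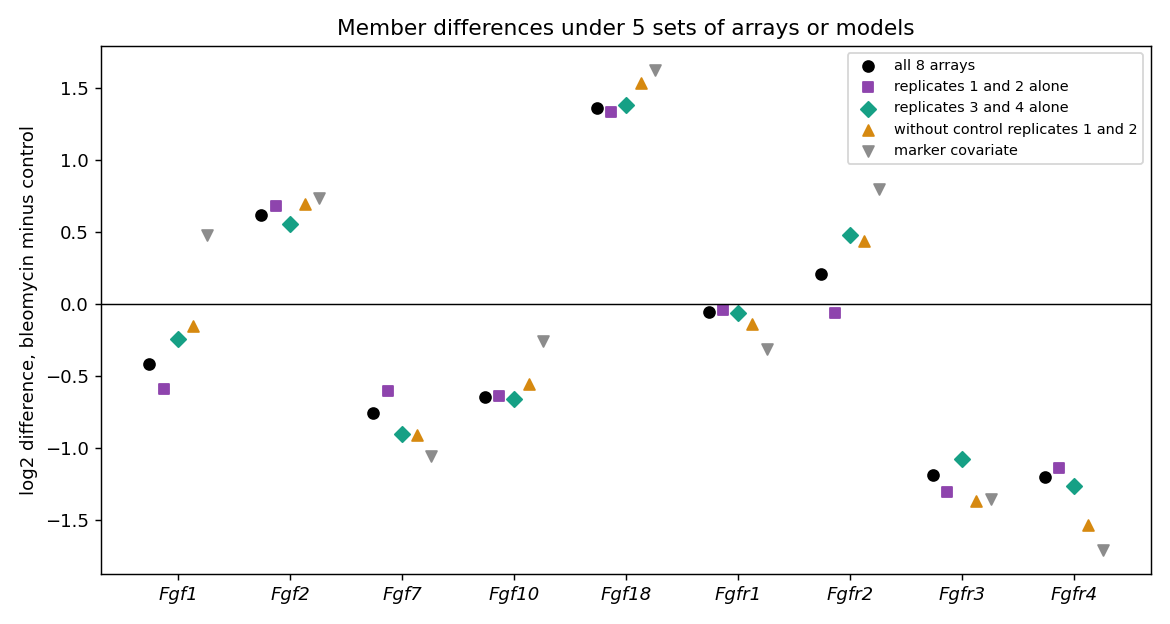
Log2 difference (bleomycin minus control) of each FGF gene from all 8 arrays, from replicates 1 and 2 or 3 and 4 alone, without control replicates 1 and 2, and with the mean of epithelial and endothelial markers as a covariate. Fgf2, Fgf7, Fgf10, Fgf18, Fgfr3 and Fgfr4 keep their sign in every set, and Fgf10 moves from -0.65 to -0.25 with the covariate. For sets that only leave out arrays the sign was fixed, as the groups of these genes do not overlap.

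Cell type markers moved with the groups. The mesenchymal markers Pdgfra (12.15 in bleomycin and 12.58 in control arrays) and Col1a1 (12.77 and 11.94) were bright on all arrays. Of 8 mesenchymal markers 6 were higher and 1, Pdgfra, lower in bleomycin arrays, with a median log2 difference of 0.83 and mean levels of 11.15 to 11.50 in bleomycin and 10.56 to 10.76 in control arrays. Of 20 epithelial markers 16 were lower and none higher in bleomycin arrays, and their mean level lay between 6.30 and 7.01 in bleomycin and between 7.75 and 8.50 in control arrays. Sftpc, a defining gene of alveolar type 2 cells, averaged 9.76 in bleomycin and 12.08 in control arrays, although the gate removes EpCAM-positive cells, and Epcam itself averaged 4.43 and 4.99, close to the medians of 4.20 to 4.52 of rows with no gene. Those medians themselves differed by group, at 4.20 to 4.35 on bleomycin and 4.44 to 4.52 on control arrays. Of 15 endothelial markers 12 were lower and none higher, with mean levels of 7.07 to 7.54 in bleomycin and 7.88 to 8.93 in control arrays. Control replicates 1 and 2 had the highest epithelial (8.50 and 8.36) and endothelial means (8.79 and 8.93), and the FGF genes differed along the same line in both directions. Fgf1, Fgf2, Fgf18 and Fgfr2 were higher on control replicates 1 and 2 than on 3 and 4, Fgf7, Fgfr1, Fgfr3 and Fgfr4 were lower there, and Fgf10 overlapped. The part of these cells in the FGF results was not tested beyond the values given here. With the mean of both marker lists as a covariate, none of the 9 genes passed, Fgf10 differed by -0.25 ± 0.25 and Fgf1 by 0.48 ± 0.25 (log2 difference ± SE). That covariate itself separates the groups, and with it Fgf18 differed by 1.62 ± 0.33, Fgfr3 by -1.35 ± 0.57 and Fgfr4 by -1.70 ± 0.64. The smallest adjusted p among the 9 in that fit was that of Fgf18, at 0.109 by limma.

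Markers of mesenchymal subtypes also differed. Of 10 alveolar fibroblast markers 9 were lower and none higher, with mean levels of 9.72, 10.17, 9.80 and 10.36 on bleomycin replicates 1 to 4, against 10.71 to 10.96 on control arrays. The order of the bleomycin arrays in that mean was that of Fgfr3 and Fgfr4, with replicate 1 lowest and replicate 4 highest. Of 10 smooth muscle and pericyte markers 6 were higher and none lower. Their means were 8.20, 7.84, 8.19 and 7.69 on bleomycin replicates 1 to 4, against 6.96 to 7.19 on control arrays. That order of bleomycin arrays is the reverse of that of Fgfr3 and Fgfr4. Among bleomycin arrays the epithelial and endothelial means were also highest on replicate 4 (7.01 and 7.54). A link between these orders was not tested. Leukocyte markers went both ways, with 5 of 12 higher and 1 lower, while Ptprc, which encodes CD45, averaged 6.22 in bleomycin and 6.69 in control arrays and did not pass (limma adjusted p = 0.0529). Of 6 mesothelial markers 1 was lower and none higher. In sorted bulk samples, fewer cells of a type and less RNA per cell cannot be told apart.

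**Figure D4:**
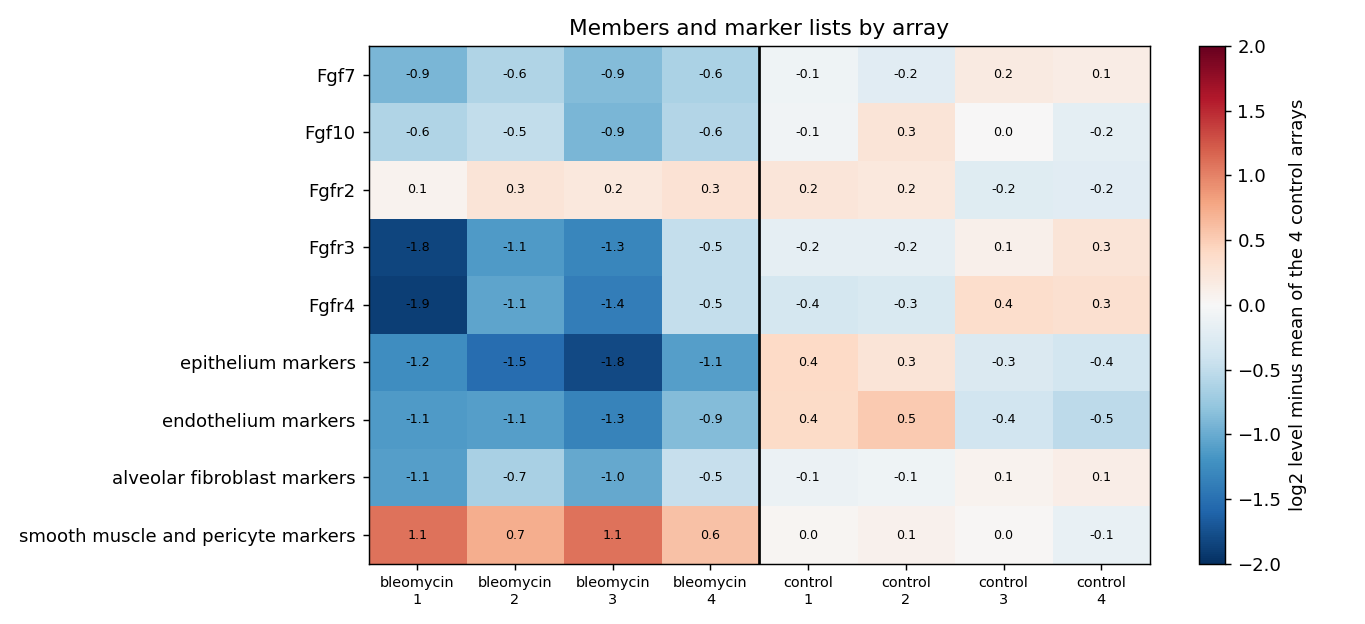
Levels of 5 FGF genes and mean levels of 4 marker lists on each array, as log2 differences from the mean of the 4 control arrays. Fgfr3, Fgfr4 and the alveolar fibroblast markers are lowest on bleomycin replicates 1 and 3, where the smooth muscle and pericyte markers are highest. The epithelial markers are lowest on bleomycin replicate 3 and, like the endothelial markers, highest among the bleomycin arrays on replicate 4.

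The genes whose levels followed Fgf18 most closely over the 8 arrays were Knstrn, a kinetochore protein gene (Pearson r = 0.997), Fzd1, a Wnt receptor gene (r = 0.993), and Pdzrn3, a ubiquitin ligase gene (r = 0.992). For Fgfr4 they were Cd40, a TNF receptor family member (r = 0.992), Prpf4b, a splicing kinase (r = 0.992), and Nbl1, a secreted BMP antagonist (r = 0.992). These correlations describe 8 arrays that share the difference between groups. Among these genes Prpf4b did not itself pass (-0.28, limma adjusted p = 0.0912). Cd40 passed at -0.74 and Nbl1 at -0.71, but both lost their call within either pair of replicates and when some single arrays were left out. These arrays were control replicates 3 and 4 for both, bleomycin replicate 1 for Cd40 and bleomycin replicate 3 for Nbl1 (limma adjusted p up to 0.0569 for Cd40 and 0.0555 for Nbl1).

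Other genes of the FGF pathway were measured in 6 lists, also chosen with earlier results of these data known. Of their 105 genes 96 were measured, of which 23 were higher and 8 lower in bleomycin arrays, or 32.3% called beside 17.4% of all genes. Among brighter genes alone the share called was larger than 17.4%. The median log2 difference of the 96 pathway genes was 0.15, beside 0.03 for all genes. Of the 17 other FGF genes 2 rose and none fell (11.8% called), with a list median of 0.14. Among the 17, Fgf11, Fgf12, Fgf13 and Fgf14 encode family members that stay inside the cell rather than secreted ligands. Several of these 17 genes were dim. Fgf13 (3.99 in bleomycin and 3.71 in control arrays) and Fgf14 (4.19 and 4.19) lay below the medians of rows with no gene. Fgf3, Fgf5 and Fgf9 lay near them, and these examples were picked after their values were seen. For such genes a lack of call does not show a lack of change. Fgf23, a hormone of bone known for control of phosphate excretion by the kidney, had the largest change of any FGF gene. It read 9.76, 8.41, 8.09 and 7.93 on bleomycin replicates 1 to 4, against 5.43, 5.71, 5.21 and 5.38 on control replicates 1 to 4. The lowest bleomycin array lay far above the highest control array, and replicate 1 was the brightest. The log2 difference was 3.11 ± 0.33, or 8.66-fold (limma adjusted p = 0.000228), and 3.51 within replicates 1 and 2 and 2.72 within replicates 3 and 4. Kl, which encodes Klotho, the coreceptor of FGF23, averaged 4.13 in bleomycin and 4.22 in control arrays, below the mean of the medians of rows with no gene in each group. Klb averaged 3.99 and 3.83, likewise dim. Both were singled out after their values were seen. Fgf12, a member that stays inside the cell, rose by 0.46 ± 0.13 (limma adjusted p = 0.0359). Its call was lost with any of bleomycin replicates 1 and 3 and control replicates 2, 3 and 4 left out, at 0.39 at the lowest (adjusted p up to 0.0977 by limma). With the marker covariate none of the 96 pathway genes passed, and there Fgf23 differed by 3.59 ± 0.78 (limma adjusted p = 0.117).

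Of 21 coreceptors and binding proteins 8 rose and 2 fell (47.6% called), with a median of 0.20. Ncam1, a neural cell adhesion molecule that can engage FGF receptors, averaged 8.31 ± 0.74 in bleomycin and 6.47 ± 0.13 in control arrays (SD, n = 4 each), 3.60-fold higher. The heparan sulfate proteoglycan Gpc4 averaged 8.13 ± 0.23 in bleomycin and 6.49 ± 0.18 in control arrays, 3.10-fold higher, and syndecan-3, Sdc3, was 2.58-fold higher (limma adjusted p of 0.00203, 4.84e-05 and 0.000529 for these genes). Another glypican gene, Gpc3, fell by 0.39 on the log2 scale. Fgfbp1, an FGF carrier protein gene, fell by 0.56, but its means of 2.32 in bleomycin and 2.88 in control arrays lay below the medians of rows with no gene. Those medians were also lower on bleomycin than on control arrays. Gpc3 did not pass without control replicate 3 (limma adjusted p = 0.053), nor Fgfbp1 without any 1 of bleomycin replicates 2 and 3 and control replicates 1 and 2 (adjusted p up to 0.0566 by limma).

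Of 18 measured enzymes that build or trim heparan sulfate 6 rose and 1 fell (38.9% called), with a median of 0.20. Of those that rose, Hs6st2 was dim, at 4.31 in bleomycin and 3.77 in control arrays. These means lay near or below the medians of 4.20 to 4.52 of rows with no gene. The 6-O-sulfotransferase gene Hs6st1 rose by 1.23 ± 0.12, the polymerase gene Ext1 by 0.84 ± 0.09 and the 6-O-endosulfatase gene Sulf1 by 0.82 ± 0.10 (log2 difference ± SE, limma adjusted p at most 0.000487). Sulf1 removes sulfate groups of the kind that Hs6st1 adds. Hs3st1, a 3-O-sulfotransferase gene, fell by 0.83 ± 0.21. Of 18 measured adaptors and transducers 2 fell and none rose, namely the docking protein gene Gab1 by 0.47 and the RAS exchange factor gene Sos2 by 0.50. The list's median was -0.03 and 11.1% of it was called, a share below that of all genes. Hs3st1 did not pass without any 1 of bleomycin replicate 1 and control replicates 1 and 2 (limma adjusted p up to 0.0625), nor Sos2 without control replicate 1 (adjusted p = 0.057 by limma).

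Of 13 feedback inhibitors 3 rose and 1 fell (30.8% called), with a median of 0.16. Dusp5, an ERK phosphatase gene, averaged 7.53 ± 0.24 in bleomycin and 6.38 ± 0.09 in control arrays (SD, n = 4 each), 2.22-fold higher (limma adjusted p = 0.000215). Spry3 rose by 0.67 and Spred1 by 0.32, and Spred2, which also inhibits the RAS-ERK cascade, fell by 0.43. Spred1 did not pass without any 1 of bleomycin replicates 1 and 3 and control replicates 1, 2 and 3 (limma adjusted p up to 0.0847). Dusp6, Spry1, Spry2 and Spry4, widely used readouts of FGF signalling and singled out after their values were seen, differed by -0.09, -0.30, 0.03 and 0.09 and did not pass. Of 9 measured downstream targets 4 rose and 2 fell (66.7% called), with a median of 0.29. The cyclin D1 gene Ccnd1 rose by 1.02 ± 0.17, Myc by 0.99 ± 0.21 and the ETS factor gene Etv4 by 0.72 ± 0.15. The immediate early genes Fos and Egr1 fell by 0.69 ± 0.10 and 0.38 ± 0.09. Etv1 and Etv5, brighter ETS factor genes of this list, differed by -0.08 and -0.02 and did not pass (limma adjusted p of 0.764 and 0.949). They were singled out after their values were seen. Without control replicates 1 and 2, Egr1 differed by -0.38 and Spred2 by -0.41 and neither passed (limma adjusted p of 0.087 and 0.0605). Many other pathways feed into these targets.

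**Figure D5:**
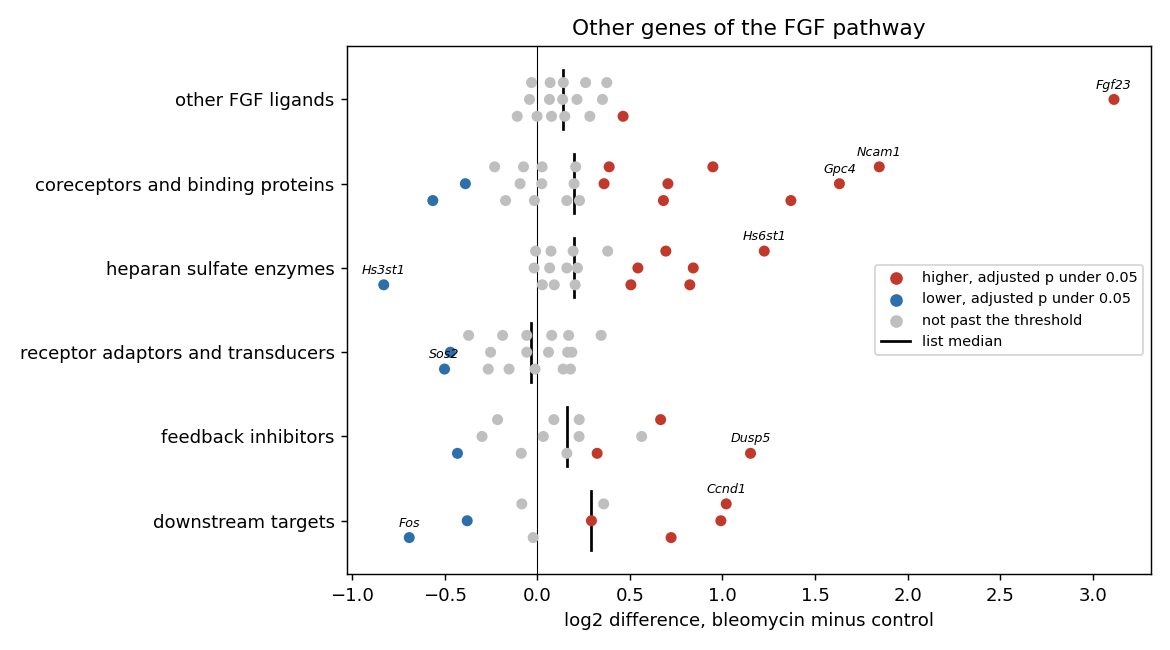
Log2 difference (bleomycin minus control) of each measured gene in 6 lists of FGF pathway genes, coloured by direction where the limma adjusted p was under 0.05, with the list median as a bar. Fgf23 stands apart at 3.11, and the list medians lie between -0.03 and 0.29.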

How the data were processed

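Per the labels' protocols, 100 ng of total RNA went into biotinylated cRNA, which was read on 1-colour arrays. The deposited table holds 1 value per row and array, taken as log2 intensity because values run from 0.24 to 13.58. Its scale, background correction and normalization by the authors are unstated in these sources, and values were used as deposited. Of 41345 rows, 23521 had 1 gene in the platform annotation, 1814 several and 16010 none. Each of the 22180 genes was represented by its brightest row. Arrays carry no read depth, so their number limits precision, and detection calls were not used. Groups and replicate numbers come from the titles. The 2 groups were tested by limma 3.58.1 (lmFit and eBayes, R 4.3.3), two-sided, Benjamini-Hochberg adjusted over all genes, and tested on simulated data first. Promoter windows are RefSeq's. Figures used matplotlib 3.10.9.

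Members, lists and alternatives were chosen with earlier results of these data known. Named are all 9 genes, and from each pathway list the 3 passing genes that moved most in the commoner direction and 2 that moved most the other way, or all where 5 or fewer passed. Defining markers and the 3 genes most correlated with the member of largest rise and of largest fall were also named. Alternatives were a replicate block, a block or separate fits for the arrays of replicates 1 and 2 and of 3 and 4, quantile normalization, median centring, dim filters at 30% and 50%, averaged rows, trended robust eBayes, array weights, each array left out, omission of control replicates 1 and 2, and a marker covariate.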

Additional observations from a re-analysis of the deposited data

Results flagged for a closer look

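Of 108 groups of 4 arrays examined, 5 held an array far from the other 3 (gap over range, Dixon's criterion), where chance flags about 1 in 20. None was in one of the 9 FGF genes. On bleomycin replicate 3, Sos2 read 8.31 against 8.77 to 8.84 on the other bleomycin arrays (ratio 0.862), Cdh5 read 9.13 against 9.81 to 9.87 (ratio 0.911), and Hs6st2 read 4.68 against 4.16 to 4.22 (ratio 0.888). On bleomycin replicate 1, Gab1 read 8.46 against 8.65 to 8.67 (ratio 0.885). On control replicate 4, Pdzrn3 read 8.40 against 8.67 to 8.68 on the other control arrays (ratio 0.955).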

How the results depend on the processing

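With 1 array left out at a time, 2 FGF genes were higher and 4 lower in every fit. The differences then ranged from -0.51 to -0.28 for Fgf1, 0.54 to 0.70 for Fgf2, -0.83 to -0.70 for Fgf7, -0.71 to -0.56 for Fgf10, 1.26 to 1.47 for Fgf18, -0.10 to 0.000425 for Fgfr1 (the positive value without control replicate 3), 0.13 to 0.29 for Fgfr2, -1.42 to -0.97 for Fgfr3 and -1.44 to -0.97 for Fgfr4. Counts of pathway genes ranged from 17 to 24 higher and 5 to 8 lower, and counts of all genes from 1497 to 1987 higher and 1306 to 1883 lower. Of 31 pathway genes that passed, 20 passed in each of these fits. Fgf12, Fgfbp1, Fgfrl1, Flrt2, Gpc3, Hs2st1, Hs3st1, Hs6st2, Phlda1, Sos2 and Spred1 did not.

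Within replicates 1 and 2 alone, Fgf7 (-0.60), Fgf10 (-0.64) and Fgfr4 (-1.14) did not pass and Fgfr2 turned to -0.066. There 838 of all genes were higher and 833 lower, 11 and 3 of the pathway genes, and 1 of the FGF genes was lower. Within replicates 3 and 4 alone, Fgf2 (0.55), Fgf10 (-0.66), Fgfr3 (-1.07) and Fgfr4 (-1.26) did not pass. There 503 of all genes were higher and 220 lower, 8 and 0 of the pathway genes, and 1 and 1 of the FGF genes (limma). These fits have 2 arrays a group. Without control replicates 1 and 2, the control arrays on which Fgfr2 was highest, Fgfr2 passed at 0.44. There 1205 of all genes were higher and 992 lower, with 2 pathway genes lower. Of the 31 pathway genes 12 lost their call there, namely Fgfbp1, Gpc3, Hs3st1, Sos2, Spred1, Spred2, Egr1, Fgfrl1, Flrt2, Gpc1, Hs6st2 and Phlda1. With the marker covariate, 35 of all genes were higher and 5 lower, and 0 of the FGF or pathway genes passed in either direction. There Fgf1 turned to 0.48, Fgf2 was 0.74, Fgf7 -1.05, Fgf10 -0.25, Fgf18 1.62, Fgfr3 -1.35 and Fgfr4 -1.70. Fgfbp1 turned to 0.16, Fgfrl1 to -0.011, Epcam to 0.22, Pecam1 to 0.22, Cdh5 to 0.69 and Ptprc to 0.18. Epcam, Pecam1 and Cdh5 are among the markers averaged in the covariate, so their shifts follow in part from the fit itself. The cause of the other shifts was not tested.

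The replicate numbers were not taken as a pairing, since same-numbered deviations correlated at 0.129, 0.0631, 0.114 and 0.0647. With a replicate block the same 6 FGF genes passed (Fgf18 at 1.36, adjusted p = 0.000503 by limma), and Hs3st1, Spred1, Fgfrl1 and Phlda1 lost their call. No call among the 9 FGF genes changed with quantile normalization, median centring, either dim filter, averaged rows, trended robust eBayes, array weights or the block of replicates 1 and 2 against 3 and 4. Of the pathway genes, median centring ended the calls of Fgf12, Spred1, Fgfrl1 and Phlda1. Signal near that of rows with no gene limits, among others, Fgfbp1, Kl, Klb, Hs6st2 and several of the other FGF genes.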

Other observations

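Further proteoglycan and heparan sulfate genes passed and were singled out after their values were seen. Perlecan, Hspg2, a basement membrane proteoglycan, averaged 10.62 ± 0.04 in bleomycin and 9.94 ± 0.21 in control arrays (log2, SD, n = 4 each), a difference of 0.68 (limma adjusted p = 0.00198). Syndecan-1, Sdc1, rose by 0.95 and glypican-1, Gpc1, by 0.71, though Gpc1 differed by 0.60 and did not pass without control replicates 1 and 2 (limma adjusted p = 0.0801). The heparanase gene Hpse, whose enzyme cuts heparan sulfate chains, rose by 0.69, and the 2-O-sulfotransferase gene Hs2st1 by 0.51, which did not pass without any 1 of bleomycin replicates 1 and 3 and control replicates 3 and 4 (limma adjusted p up to 0.0629). Fgfrl1, an FGF receptor without a kinase domain, rose by 0.36 ± 0.10 (limma adjusted p = 0.0319), and its difference was 0.24 without control replicates 1 and 2 (adjusted p = 0.202 by limma). It also did not pass without any 1 of bleomycin replicates 2 and 3 and control replicates 1 and 2 (limma adjusted p up to 0.0825).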
